A study of Mus musculus with 8 samples.

Results

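Skin of mice labelled hairloss, which carry a spontaneous mutation, was compared between the day of birth and postnatal day 16. The comparison covers the protein-coding genes that reached at least 1 FPKM (fragments corrected for the length of the transcript and the depth of the library) in either of the 2 hairloss libraries, which were 13698 of the 21899 protein-coding genes in the files. The study sequenced total RNA of whole skin as 8 libraries, with wildtype and hairloss mice each sampled once at days 0, 16, 19 and 28. The labels give tissue, genotype and age only. They name neither the mutated gene nor the strain, the sex or the number of animals in a library. Each side of the comparison is 1 library, so the difference has no replicate check and is a description of that pair. The 2 wildtype libraries of days 0 and 16 are given beside it.

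Mouse skin changes deeply in the weeks after birth. At birth the pelage follicles are still forming and growing down from the epidermis, and by the end of the first hair growth phase (anagen) they hold mature hair shafts. A hair shaft is built from hair keratins, which form the filaments, and from keratin-associated proteins (KRTAPs), which cross-link them, inside a guiding sleeve called the inner root sheath. Over the same weeks fetal and neonatal muscle proteins give way to adult forms, imprinted growth genes are shut down in many tissues, and immune cells settle in the skin.

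The spacing of the lowest values implied 37200000 fragments in the day 0 and 44700000 in the day 16 hairloss library, within a range of 30900000 to 44700000 over the 8 libraries. At these depths 3 fragments on 1 kb of transcript equal 0.0806 and 0.0671 FPKM, a floor for counting error only. The libraries were of skin by their markers: Krt5, a basal keratinocyte keratin, stood at 697 and 2383 FPKM at days 0 and 16, Col1a2, a fibroblast collagen, at 1611 and 646 FPKM, and the milk protein gene Csn2 at 0 in both. They differed in markers of sex. Xist, the RNA that silences an X chromosome in females, stood at 76.1 FPKM in the newborn library and 0.00961 FPKM in the later one, whereas the Y-linked gene Ddx3y stood at 0 and 20.4 FPKM. The wildtype libraries held 51.3 and 0.0158 FPKM of Xist and 16.3 and 20.1 FPKM of Ddx3y. In the hairloss comparison age and sex therefore cannot be told apart, and in bulk skin RNA fewer cells of a type and less RNA per cell cannot be told apart.

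Of the 13698 genes, 1517 were at least 2-fold higher at day 16 than at day 0 (11.1%) and 1197 at least 2-fold lower (8.74%), on the log2(FPKM + 1) scale, which understates the fold of low genes. The median difference over these genes was -0.0028. Large differences lay mostly on the higher side, with 216 genes higher by at least 3 on the log2 scale against 55 lower by as much, and 65 against 5 at a size of 5. Keratins and KRTAPs made up 2.25% of protein-coding FPKM at day 0 and 6.16% at day 16. With the libraries rescaled to their other protein-coding genes the median difference moved by -0.17, and the counts became 1238 higher and 1626 lower. With 5 in place of 1 added before the logarithm they were 804 and 428. The wildtype pair gave 1545 genes higher (11.3% of 13658) and 1212 lower (8.87%). Of the hairloss genes counted in both pairs, 892 of 1366 higher genes were also higher in wildtype (65.3%, and 60.8% of the wildtype ones) and 684 of 1174 lower genes were also lower (58.3% and 57.1%). The step that both genotypes share was tested with limma over all 8 libraries, with genotype as a block, and 670 genes of all types passed as higher (3.58% of 18724) and 827 as lower (4.42%) at a Benjamini-Hochberg adjusted p under 0.05. Among them were 624 higher and 622 lower protein-coding genes. That test has no term for sex, and Xist was far lower at day 16 than at day 0 in both genotypes. Age and sex are thus not separated in it. Without the day 28 libraries 379 genes of all types passed as higher and 375 as lower.

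**Figure D1:**
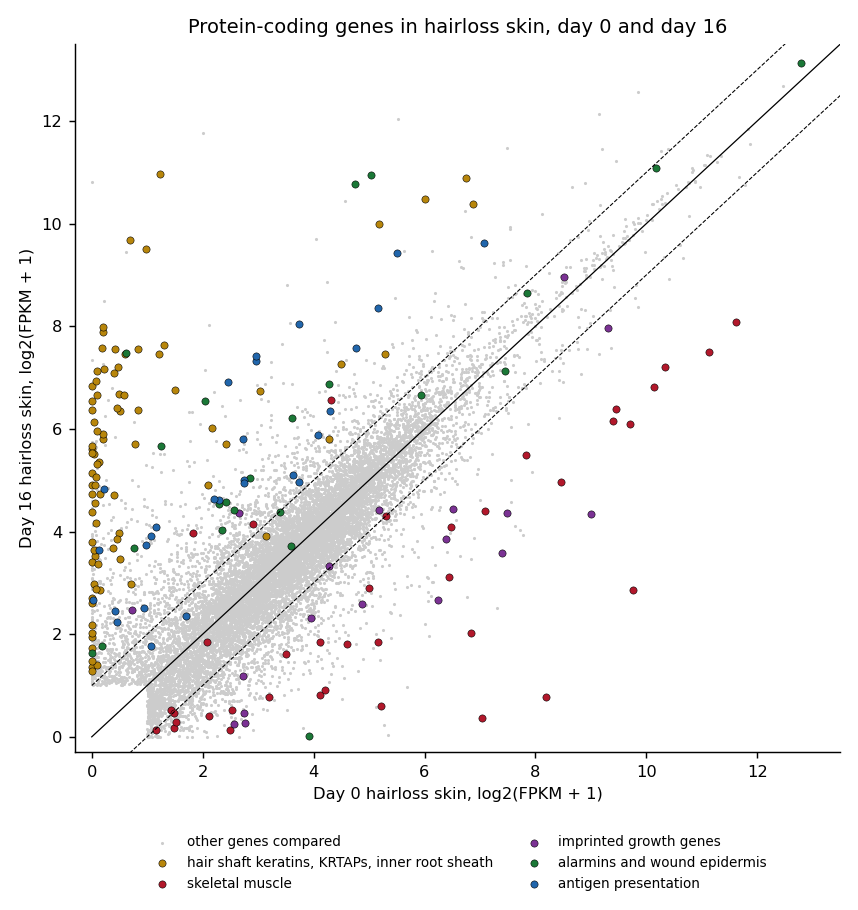
Level of each protein-coding gene compared in hairloss skin at day 0 (horizontal) and day 16 (vertical), both as log2(FPKM + 1) with 1 library each. The solid line marks equal levels and the dashed lines 2-fold, and the hair fibre genes (gold) lie far above the lines while most skeletal muscle genes (red) and most imprinted growth genes (purple) lie below.

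With predicted names left out, Defb6 (chr8:19225478-19228209, mm10) had the largest log2(FPKM + 1) difference among genes above 0 in both hairloss libraries. It encodes a beta-defensin, a small antimicrobial peptide. Its difference was 9.76, next to 9.74 for Krtap22-2, whose plain ratio of day 16 to day 0 was larger (1493 against 1157). In hairloss skin Defb6 went from 3.004 FPKM in the newborn to 3477 FPKM, and in wildtype skin from 0.782 to 1940 FPKM. Its level was low in both newborn libraries and among the 10 highest of the hairloss library at day 16. Over both genotypes Defb6 rose by 9.93 ± 0.40 (SE) on the log2 scale (limma adjusted p = 0.0028). Cst6 (chr19:5344705-5349574), which encodes cystatin M/E, an inhibitor of the cysteine proteases that trim the cornified layer and the hair, stood at 44.7 and 4190 FPKM in hairloss skin and at 42.4 and 4280 FPKM in wildtype skin. It rose by 6.57 ± 0.33 (SE, limma adjusted p = 0.0053). Ccl8 (chr11:82115185-82116799), a chemokine that draws monocytes and T cells, stood at 0.527 and 697 FPKM in hairloss skin and at 1.02 and 77.7 FPKM in wildtype skin. It rose by 7.06 ± 0.88 over both genotypes (SE, limma adjusted p = 0.033). Apoe, a lipid carrier, stood at 918 and 6072 FPKM, and it rose over both genotypes by 3.26 ± 0.35 (SE, limma adjusted p = 0.024). Retnla, which alternatively activated macrophages make, stood at 0.231 and 93.2 FPKM and passed the same test with an adjusted p of 0.036.

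Stfa3, a stefin that inhibits cysteine proteases and is abundant in newborn epidermis, held the highest protein-coding level of both hairloss libraries, 7111 FPKM in the newborn and 8940 FPKM later. In wildtype skin it went from 2872 to 15.3 FPKM. The stefins lie in a cluster of near-identical genes, so how reads were shared among them is uncertain. Rps27, a ribosomal protein gene, stood at 5659 and 6611 FPKM, and Eef1a1, the translation elongation factor, at 3641 and 3671 FPKM. Of the 81 ribosomal protein genes in the files none was 2-fold apart between the hairloss libraries, and their median difference was 0.12, which became -0.07 (1 gene 2-fold lower) with the rescaling that leaves out keratins.

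Hair shaft keratins and KRTAPs stood higher at day 16 as whole families. All 15 of the shaft keratins were past 2-fold, and their median level was 0.414 FPKM in the newborn and 80.7 FPKM later. Of the 57 KRTAP genes, 54 were at least 2-fold higher, and the other 3 were under 1 FPKM at both days. Most members passed the filter through the day 16 library alone (13 hair shaft keratins and 52 KRTAPs), so a difference was built into their selection and the counts describe levels only. At day 0, 23 of the 57 KRTAP genes were listed at 0 and their median was 0.0481 FPKM, below the level of 3 fragments in 1 kb. At day 16 the KRTAP median was 32.2 FPKM and the family's share of protein-coding FPKM went from 0.00306% to 1.30%.

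Promoters are shown for the KRTAP genes and the hair keratin described next, as members of families that moved together. The sequences are the 150 bases before the start site in RefSeq annotation of GRCm38.p6 (the build of mm10), read 5′ to 3′ on the gene's strand, and the capitals mark a TATA box (TATAAA).
Krtap22-2 (chr16:89010760-89010909, minus strand): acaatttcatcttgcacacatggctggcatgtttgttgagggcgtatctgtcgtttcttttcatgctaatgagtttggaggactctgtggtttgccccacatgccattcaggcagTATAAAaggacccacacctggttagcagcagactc
Krtap8-1 (chr16:89487953-89488102, minus strand): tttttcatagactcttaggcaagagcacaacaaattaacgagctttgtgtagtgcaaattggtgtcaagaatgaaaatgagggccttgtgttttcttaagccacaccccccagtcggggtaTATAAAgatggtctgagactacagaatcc
Krt31 (chr11:100050552-100050701, minus strand): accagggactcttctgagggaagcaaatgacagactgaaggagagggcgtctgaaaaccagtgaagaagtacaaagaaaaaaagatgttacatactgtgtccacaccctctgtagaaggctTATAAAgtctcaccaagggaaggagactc
The first base of the box lies 35 bases before the start site in Krtap22-2 and 29 bases before it in Krtap8-1 and Krt31. TATAAA was searched on both strands of the same window in the 16514 protein-coding genes of the files that the RefSeq table held. It was found in 38 of 48 KRTAP promoters (79.2%), 5 of 9 hair shaft keratins and 9 of 13 inner root sheath genes, against 1250 of the 16514 (7.57%). KRTAP genes lie in clusters of related copies, so their promoters are not independent, and a match describes letters and not a used site.

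Krtap22-2 encodes a small glycine- and tyrosine-rich hair protein. In hairloss skin it went from 1.34 to 2008 FPKM, and in wildtype skin from 0.778 to 9075 FPKM. Krtap8-1 stood at 0.981 and 722 FPKM against 3.90 and 5004 FPKM in wildtype. Krtap7-1 stood at 0.615 and 819 FPKM against 2.97 and 4293 FPKM. These 3 genes share the glycine- and tyrosine-rich class, and none was above 1.34 FPKM in the newborn hairloss library. Of the cysteine-rich KRTAPs, Krtap3-1 stood at 0.144 and 237 FPKM and Krtap1-5 at 0.332 and 188 FPKM. Krtap17-1 held the highest newborn level of the family, 4.37 FPKM, and stood at 51.0 FPKM at day 16. Krtap6-1, Krtap6-2 and Krtap6-3 were listed at 0 at day 0 and stood at 91.7, 81.2 and 113 FPKM at day 16.

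Among the keratins, Krt86, a type II keratin of the hair cortex, stood at 0.162 and 143 FPKM in hairloss skin and at 0.625 and 710 FPKM in wildtype skin. Krt83 held the highest hair shaft keratin level of the day 16 library, 187 FPKM, after 0.788 FPKM at day 0. Krt31, a type I cortex keratin, stood at 0.426 and 80.7 FPKM against 1.74 and 313 FPKM in wildtype. Krt35, which is made early in the matrix and cuticle, was the exception at birth with 18.4 FPKM, and it stood at 54.6 FPKM at day 16. The difference between days was at least 2-fold smaller in hairloss than in wildtype skin for 12 of the 15 hair shaft keratins and for 49 of the 54 KRTAP genes compared. Over all genes, the hairloss step lay at least 2-fold below the wildtype step in 5.38% of 14021 and above it in 5.11%. This difference of steps rests on 4 single libraries and has no test. In the limma fit the shared step of Krt31 was 6.34 ± 3.15 (SE, adjusted p = 0.24). None of the 15 hair shaft keratins passed it, with 2 at an unadjusted p under 0.05, and 1 of 56 KRTAP genes did (Krtap20-2), with 6 under that unadjusted p. Over all 18724 genes fitted, 6260 were under that unadjusted p, so these counts do not stand out. The spread of that fit comes from how the genotype difference moved over the 4 ages.

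Inner root sheath genes were detected at birth already. The 13 genes had a median of 7.82 FPKM then and 174 FPKM later, and 12 of them were at least 2-fold higher. Krt71, a type II keratin of all sheath layers, stood at 107 and 1903 FPKM, and Krt25 and Krt27, its type I partners, at 117 and 1339 and at 35.3 and 1011 FPKM. Krt72 stood at 1.31 and 174 FPKM and Tchhl1, a trichohyalin-like protein, at 1.48 and 198 FPKM. Tchh, trichohyalin itself, stood at 63.8 and 1419 FPKM in hairloss skin. In wildtype skin it was listed at 56.6 FPKM and at 0, which can be a failed estimate because its partner keratins were high there. Tgm3, a transglutaminase that cross-links trichohyalin, was the member under 2-fold, at 7.82 and 14.0 FPKM. In wildtype skin the medians of the 13 genes were 6.85 FPKM at day 0 and 540 FPKM at day 16. The hairloss step lay at least 2-fold below the wildtype step for 8 of the 13 and above it for 1, which was not tested. None of the 13 passed the limma test, and none had an unadjusted p under 0.05.

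**Figure D2:**
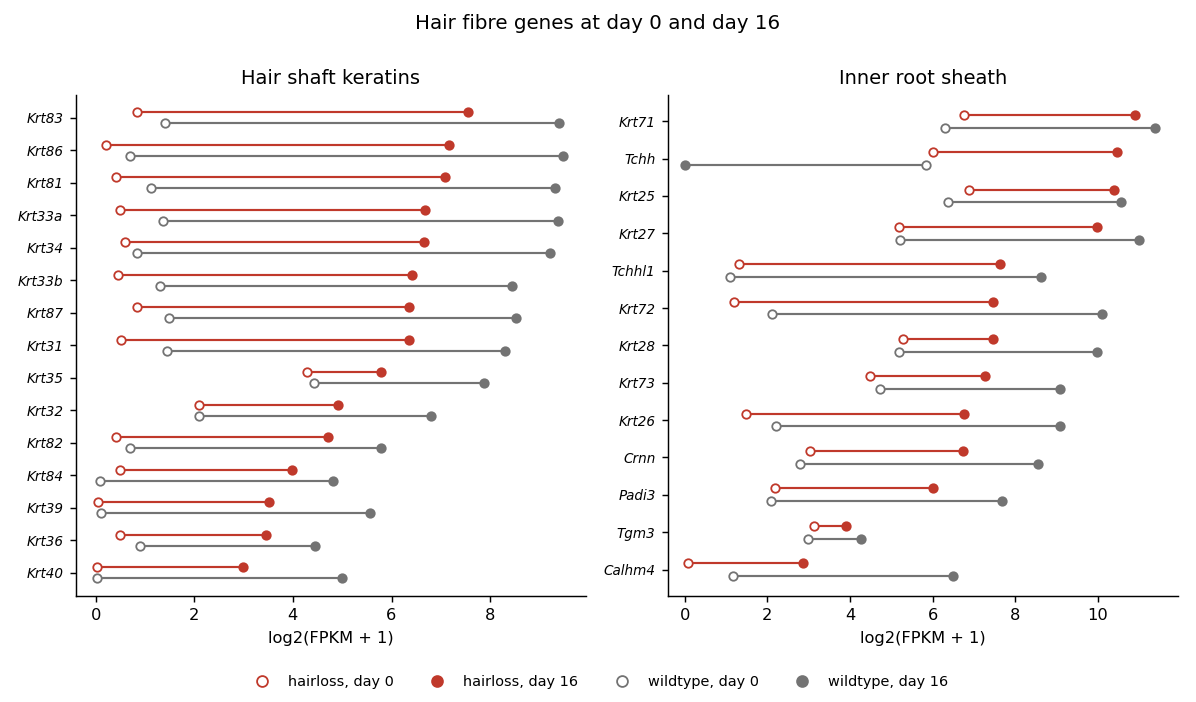
Levels of the hair shaft keratins (left) and inner root sheath genes (right) as log2(FPKM + 1), with day 0 as open and day 16 as filled circles, hairloss in red and wildtype in grey, 1 library each. The sheath keratins start from higher newborn levels than most shaft keratins, and the day 16 hairloss circles lie left of the wildtype ones for 15 of 15 shaft keratins.

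Regulators and markers of the hair shaft and of the matrix, the dividing cells that feed it, were more often higher than lower. Of 26 genes, 15 were at least 2-fold higher and 2 lower in hairloss skin, against 20 and 0 in wildtype skin. The hairloss step lay at least 2-fold below the wildtype step for 19 of the 26 and above it for 1, against 5.38% and 5.11% of all genes. That difference was not tested. The levels that follow are of hairloss skin unless wildtype is named. Gprc5d, a receptor of the keratinizing shaft, stood at 0.177 and 75.3 FPKM, S100a3, a calcium-binding protein of the cuticle, at 17.8 and 463 FPKM, and Vsig8 at 0.791 and 28.7 FPKM. The transcription factors moved less: Hoxc13, which switches on hair keratin genes, stood at 3.85 and 16.05 FPKM and Foxn1 at 1.34 and 5.16 FPKM. The 2 lower genes were Lef1, the Wnt effector of hair keratin transcription, at 15.8 and 3.50 FPKM, and Lhx2, a follicle stem cell factor, at 20.2 and 8.94 FPKM. Wildtype Lef1 stood at 17.3 and 13.9 FPKM. Sox9 rose over both genotypes (limma, 1 of 26), a share near the 3.58% of all genes that passed as higher.

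Among the signals that shape new follicles, Hedgehog, Wnt and dermal papilla genes were more often lower than higher at day 16. In the Hedgehog pathway, which drives follicle down-growth, 7 of the 14 genes were at least 2-fold lower, 2 were under 1 FPKM at both days and none was higher. The ligand Shh stood at 4.82 and 0.643 FPKM. The receptor Ptch1 stood at 68.9 and 7.14 FPKM. Gli1 (chr10:127329882-127341974), the pathway's transcription factor and target, stood at 32.5 and 2.33 FPKM in hairloss skin and 34.9 and 4.49 FPKM in wildtype skin. It fell by 3.02 ± 0.38 over both genotypes (SE, limma adjusted p = 0.028), and 5 of 13 genes tested fell, among them Ptch1, Hhip and Shh. Smo, the signal transducer, stood at 27.4 and 24.2 FPKM. Of 32 Wnt pathway genes, 9 were lower and 3 higher. Dkk1, a secreted inhibitor, stood at 3.80 and 0.00916 FPKM, the target Axin2 at 24.8 and 7.70 FPKM, and the ligand Wnt10b at 15.7 and 2.98 FPKM, whereas the inhibitors Dkk2 and Sfrp1 stood at 2.60 and 11.7 and at 4.90 and 16.4 FPKM. Of 21 BMP genes, 2 were higher and 2 lower, against 7 and 2 in wildtype skin. Of 19 FGF genes 3 were higher and 4 lower, as in wildtype skin. Over all genes compared in hairloss skin 11.1% were higher and 8.74% lower, so the BMP counts lie near the share of all genes. Dermal papilla genes, of the mesenchymal cluster that instructs the follicle, gave 8 lower and 1 higher of 19. Of the 17 compared, 4 passed the filter through the day 0 library alone, so these counts describe levels only. Hhip, Rspo3, Wif1, Trps1, Alx4 and Vcan fell over both genotypes (limma, 6 of 18). Edar, the ectodysplasin receptor that places follicles, stood at 4.79 and 0.0831 FPKM in hairloss skin and 4.33 and 0.286 FPKM in wildtype skin, and fell in the same test.

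Keratins of the epidermis and of wounds diverged. In basal cells, Krt14 stood at 569 and 4475 FPKM and Krt5 at 697 and 2383 FPKM. In the layers above, Krt10 stood at 3507 and 1715 FPKM and Krt1 at 3249 and 1914 FPKM. The basal pair was thus the lower at birth and the higher at day 16. In wildtype skin Krt1 stood at 2155 and 76.4 FPKM and Krt10 at 2038 and 508 FPKM. Of the 6 keratins of the companion layer and of wounded epidermis, 6 were at least 2-fold higher in hairloss skin. Krt6a stood at 22.6 and 1387 FPKM and Krt17 at 179 and 2847 FPKM, and both rose over both genotypes (limma). Krt16 went from 98.0 to 614 FPKM, and in wildtype skin from 48.2 to 16.9 FPKM. Krt6b went from 101 to 570 FPKM, and in wildtype skin from 5.48 to 0.229 FPKM. Krt12, a keratin of the cornea, stood at 39.6 and 0.0270 FPKM in hairloss skin and 3.39 and 0.0178 FPKM in wildtype skin.

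Genes of the cornified layer did not move as 1 block. Of the 21 late cornified envelope genes, 3 were higher (Lce3a, Lce3b and Lce3f, all at most 5.88 FPKM) and 1 lower (Lce1m, 87.1 and 14.6 FPKM), and 17 were within 2-fold. In wildtype skin 11 of the 21 were lower. Of 15 small proline-rich genes, 7 were higher and none lower. Sprr1a stood at 48.5 and 707 FPKM, and Sprr4 was listed at 0 at day 0 and stood at 161 FPKM at day 16. Lgals7, an epidermal galectin, stood at 590 and 2814 FPKM and Ivl, involucrin, at 16.2 and 61.3 FPKM. On the lower side were Hrnr, hornerin, at 69.9 and 7.10 FPKM, Lor, loricrin, at 92.8 and 40.9 FPKM, and Flg2 at 75.1 and 32.0 FPKM. Epidermal kallikreins and their inhibitors, the proteases of skin shedding, were higher in 8 of 16 genes and lower in none. Klk6 stood at 3.32 and 258 FPKM and Klk10 at 4.07 and 86.3 FPKM. Klk6, Klk7, Klk10 and Spink5 rose over both genotypes (limma, 4 of 14). Desmosome genes, which hold keratinocytes together, were higher in 9 of 16 genes and lower in none, led by Dsg4, the desmoglein of the hair shaft, at 1.51 and 23.1 FPKM.

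Lipid genes of the sebaceous gland were higher in 10 of 19 genes and lower in none. Elovl3, a fatty acid elongase, stood at 2.52 and 79.5 FPKM, Awat1, a wax synthase, at 1.34 and 44.6 FPKM, and Elovl6 at 6.88 and 115 FPKM. Elovl3, Awat1, Elovl6, Far2 and Dgat2l6 rose over both genotypes (limma, 5 of 19). Pigment genes were lower in 6 of 14 and higher in none. Of the 13 compared, 4 passed the filter through the day 0 library alone, so that count describes levels only. Pmel, the fibril protein of the melanosome, stood at 27.5 and 7.19 FPKM, Dct at 47.6 and 15.6 FPKM, and Tyr, tyrosinase, at 4.70 and 0.776 FPKM. Pmel and Dct fell over both genotypes.

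Fetal and neonatal muscle genes stood far lower at day 16. The thin panniculus muscle below the dermis is part of whole skin. Of 21 genes, 17 were at least 2-fold lower at day 16, and 14 of the 18 compared passed the filter through the day 0 library alone, so these counts describe levels only. Actc1 (chr2:114047282-114053548), cardiac alpha-actin, which fetal muscle uses, stood at 292 and 0.702 FPKM in hairloss skin and 268 and 2.30 FPKM in wildtype skin. Myh8 (chr11:67277124-67308634), the perinatal myosin heavy chain, stood at 870 and 6.27 FPKM against 684 and 2.53 FPKM. Myh3 (chr11:67078300-67102291), the embryonic one, stood at 131 and 0.288 FPKM against 106 and 0.451 FPKM. Over both genotypes Myh8 fell by 7.25 ± 0.28 and Myh3 by 6.44 ± 0.24 (SE, limma adjusted p = 0.0028 for each), and 14 of 19 genes tested fell. The regulator Myog stood at 16.2 and 0.754 FPKM, and Mymk, needed for myoblast fusion, at 4.62 and 0.0970 FPKM.

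The promoters of Myh3 and Actc1 are printed as those of the fetal muscle genes with the largest differences for which a searched motif was found, over the same 150 bases, with a TATA box in capitals in Myh3 and a CArG box, the site that serum response factor recognises, in Actc1.
Myh3 (chr11:67078150-67078299, plus strand): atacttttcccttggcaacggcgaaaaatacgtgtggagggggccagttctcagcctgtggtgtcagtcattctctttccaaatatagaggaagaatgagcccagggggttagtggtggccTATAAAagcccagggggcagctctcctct
Actc1 (chr2:114052876-114053025, minus strand): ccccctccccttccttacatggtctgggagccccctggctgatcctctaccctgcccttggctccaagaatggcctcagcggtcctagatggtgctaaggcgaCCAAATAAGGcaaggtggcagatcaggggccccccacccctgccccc
A CArG box was found in 1 of 14 fetal muscle promoters and 2 of 16 adult muscle promoters, against 146 of the 16514 (0.884%), and TATAAA in 2 of the 14 and 4 of the 16.

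Adult muscle genes were lower too, with exceptions. Of 21 genes, 15 were at least 2-fold lower and 3 higher. Acta1, skeletal alpha-actin, stood at 3146 and 272 FPKM, Mylpf, the fast regulatory light chain, at 2228 and 180 FPKM, and Ckm, muscle creatine kinase, at 833 and 67.5 FPKM. The 3 higher genes were Myh1, a fast adult myosin, at 18.9 and 93.7 FPKM, Mb, myoglobin, at 2.54 and 14.7 FPKM, and Pvalb, parvalbumin, at 6.54 and 16.7 FPKM. In wildtype skin the same 3 stood at 20.2 and 94.9, at 2.74 and 30.1, and at 5.69 and 112 FPKM. Myh4, the fastest adult myosin, stood at 3.25 and 2.60 FPKM in hairloss skin but at 1.67 and 79.2 FPKM in wildtype skin. The hairloss step lay at least 2-fold below the wildtype step for 15 of the 20 genes compared. The summed level of the list was 10914, 1188, 4548 and 11037 FPKM in the hairloss libraries of days 0, 16, 19 and 28. In the wildtype libraries of those days it was 8914, 2525, 9931 and 4938 FPKM, so it varied between days in both genotypes. How much the amount of muscle in a skin piece contributed was not tested.

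Imprinted growth genes, which act before and around birth and are expressed from 1 parental copy, were lower in 13 of 22 and higher in 2. Igf2 (chr7:142650766-142666816), a fetal growth factor, stood at 511 and 19.3 FPKM in hairloss skin and at 509 and 17.9 FPKM in wildtype skin. It fell by 4.70 ± 0.46 over both genotypes (SE, limma adjusted p = 0.022). Cdkn1c, a cell cycle inhibitor, stood at 168 and 10.96 FPKM, Plagl1, a zinc finger factor, at 75.1 and 5.33 FPKM, and Peg3 at 177 and 19.5 FPKM. None of the 18 members compared had a hairloss step 2-fold apart from its wildtype step, and none in the Hedgehog list did either. Over all 14021 genes the hairloss step lay that far below in 5.38% and above in 5.11%, so few were to be found in a list this short. Of 18 genes tested, 13 fell over both genotypes and 1 (Nnat, 5.27 and 19.6 FPKM in hairloss skin) rose. Phlda2, a brake on placental growth, stood at 0.657 and 4.51 FPKM. Fetal RNA-binding and chromatin genes were lower in 6 of 14, led by Igf2bp2 at 13.6 and 2.45 FPKM, and Hmga2 stood at 2.25 and 0.134 FPKM. Of the 10 compared, 4 passed the filter through the day 0 library alone, Hmga2 among them, so that count describes levels only.

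**Figure D3:**
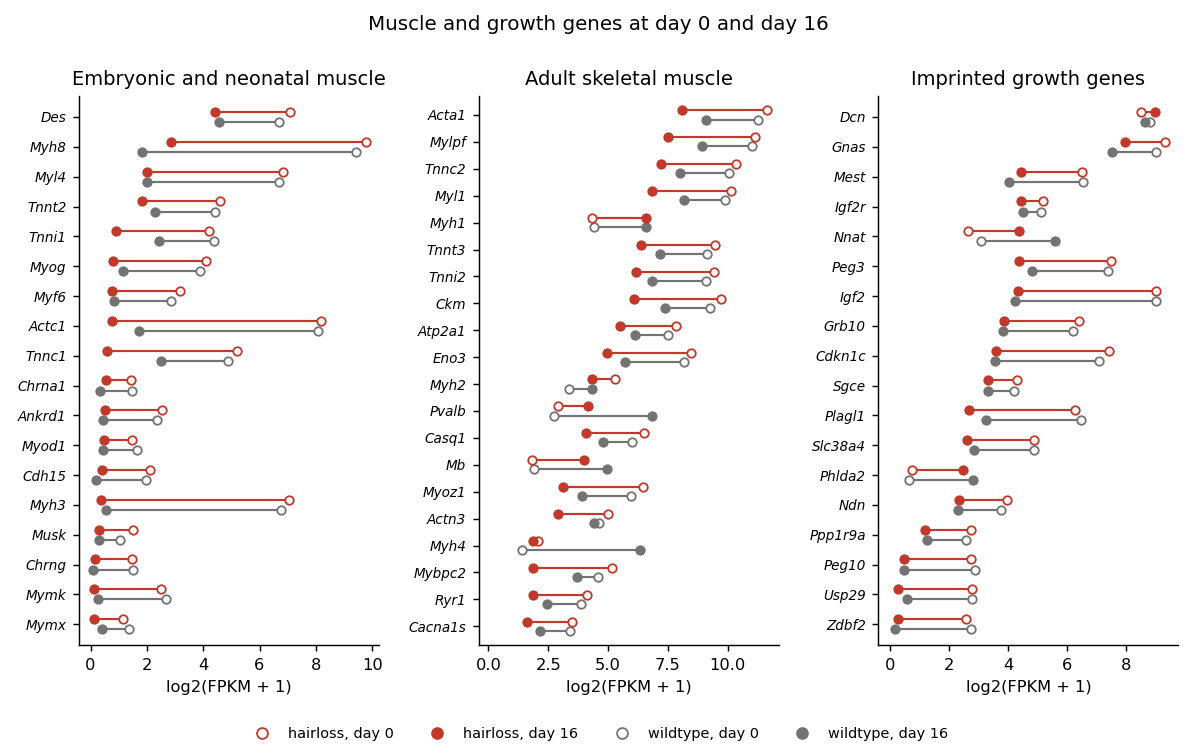
Levels of fetal and neonatal muscle genes, adult muscle genes and imprinted growth genes as log2(FPKM + 1), with day 0 open and day 16 filled, hairloss in red and wildtype in grey, 1 library each. The imprinted genes of both genotypes move by similar lengths, whereas the red lines of adult muscle genes reach lower than the grey ones for most genes.

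Genes of the dermal matrix were mostly level or lower. Of 17 dermal collagen genes, 9 were at least 2-fold lower. Col1a1 stood at 1350 and 486 FPKM, Col1a2 at 1611 and 646 FPKM, Col5a1 at 231 and 67.7 FPKM and Col6a3 at 563 and 175 FPKM. In wildtype skin Col1a1 stood at 1424 and 1236 FPKM. Col3a1 was listed at 0 at day 0 and at 1801 FPKM at day 16 in hairloss skin, and the wildtype library of day 0 held 3238 FPKM. That 0 can be a failed estimate, since the other fibrillar collagens were high in the same library. Fbn2, the fibrillin of fetal elastic fibres, stood at 68.4 and 5.66 FPKM and fell by 3.58 ± 0.28 over both genotypes (SE, limma adjusted p = 0.014). Cilp, a matrix protein, stood higher, at 10.2 and 50.04 FPKM. In the basement membrane, which anchors epidermis to dermis, 9 of 24 genes were lower and 2 higher. Frem1 and Fras1, which act in that junction during development, stood at 18.1 and 2.58 and at 13.3 and 1.73 FPKM, whereas Col17a1, of the hemidesmosome, stood at 54.4 and 147 FPKM. Over both genotypes 8 of 23 of these genes fell and Cd151 rose.

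Cell cycle genes were slightly lower. Of 34 genes, 7 were at least 2-fold lower and none higher, with a median difference of -0.59, against 24 lower and a median of -1.30 in wildtype skin. Mki67, present in all cycling cells, stood at 43.3 and 20.01 FPKM and Foxm1, which drives mitotic genes, at 15.0 and 4.16 FPKM. The replication licensing gene Mcm5 stood at 13.7 and 17.0 FPKM in hairloss skin and 18.0 and 7.07 FPKM in wildtype skin. For 7 of the 34 the hairloss step lay at least 2-fold above the wildtype step. Foxm1 and Kif23 fell over both genotypes (limma, 2 of 34), a share near the 4.42% of all genes that passed as lower.

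Antigen presentation genes stood higher throughout. Of the 16 genes of class I antigen processing, which displays peptides on every cell type, 16 were at least 2-fold higher and their median difference was 2.43. H2-K1 stood at 44.6 and 691 FPKM in hairloss skin and at 55.8 and 255 FPKM in wildtype skin. B2m, the shared light chain, stood at 133 and 784 FPKM, and Psmb8, of the immunoproteasome, at 5.59 and 54.5 FPKM. Of these genes 9 of 16 rose over both genotypes (limma), and for 11 the hairloss step lay at least 2-fold above the wildtype step. Of 18 genes of Langerhans cells and class II presentation, 10 were higher and none lower. Cd74, the class II chaperone, stood at 12.3 and 264 FPKM and H2-Ab1 at 6.79 and 170 FPKM. Cd207, langerin, which defines epidermal Langerhans cells, stood at 0.0182 and 5.32 FPKM, while the wildtype pair held 0 and 6.64 FPKM. Here 9 of 15 genes rose over both genotypes, and 2 had a hairloss step at least 2-fold above the wildtype one.

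Macrophage and neutrophil genes were at least 2-fold higher at day 16 in more cases in hairloss than in wildtype skin, a difference that was not tested. Of 21 macrophage and monocyte genes, 14 were at least 2-fold higher and 1 lower in hairloss skin, against 3 and 5 in wildtype skin, and 16 had a hairloss step at least 2-fold above the wildtype step. Lyz2, lysozyme, stood at 17.3 and 213 FPKM, Ctss at 11.3 and 117 FPKM, and Ccr2, the monocyte chemokine receptor, at 0.637 and 18.0 FPKM. Lyve1, of lymphatic vessels and some dermal macrophages, was the lower gene at 29.2 and 6.76 FPKM. Of 17 neutrophil genes, 7 were higher and 1 lower, and 7 passed the filter through the day 16 library alone, so that count describes levels only. Csf3r and Cxcr2, receptors of mature neutrophils, stood at 0.496 and 7.38 and at 0.208 and 7.59 FPKM, against wildtype day 16 levels of 0.158 and 0.269 FPKM. Ly6g, Mpo and Elane, which mark neutrophils or their precursors, were under 1 FPKM in both hairloss libraries. The S100a8 and S100a9 genes of this list are made by stressed keratinocytes too. They stood at 31.9 and 1984 and at 26.0 and 1748 FPKM in hairloss skin, while the wildtype pair held 22.7 and 134 and 21.7 and 16.6 FPKM. None of the 12 neutrophil genes fitted passed the limma test, with 2 higher and 1 lower at an unadjusted p under 0.05. That unadjusted level was reached by 6260 of all 18724 genes fitted.

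**Figure D4:**
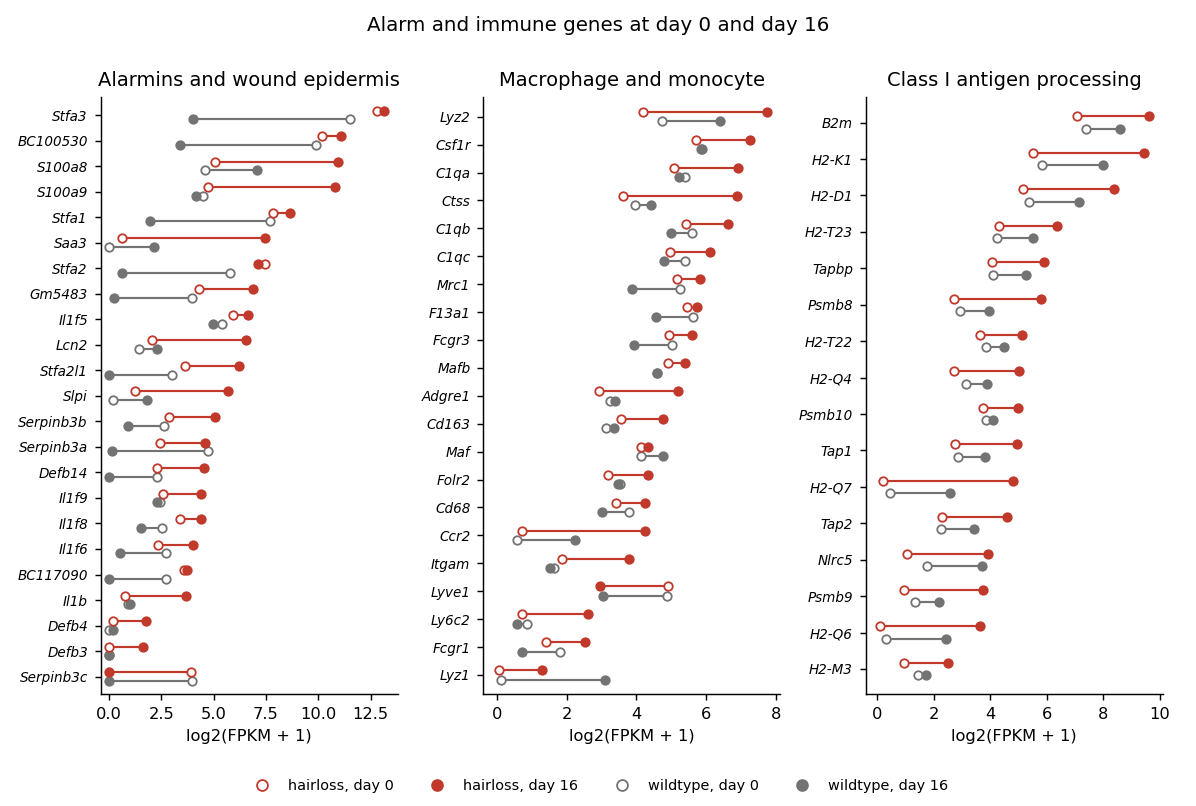
Levels of alarmin and wound epidermis genes, macrophage and monocyte genes and class I antigen processing genes as log2(FPKM + 1), with day 0 open and day 16 filled, hairloss in red and wildtype in grey, 1 library each. In the left panel the day 16 circles lie right of the day 0 ones for most hairloss genes and left of them for most wildtype genes.

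Alarmins and other genes of wounded or inflamed epidermis went opposite ways in the genotypes, and this difference has no test either. Of 23 genes, 15 were at least 2-fold higher and 1 lower in hairloss skin, against 3 higher and 13 lower in wildtype skin, and 22 had a hairloss step at least 2-fold above the wildtype step. Saa3, an acute-phase protein, stood at 0.526 and 177 FPKM, against 0 and 3.42 FPKM in wildtype. Lcn2, an iron-binding defence protein, stood at 3.12 and 91.9 FPKM and Slpi, a protease inhibitor, at 1.38 and 50.1 FPKM. Serpinb3c was the lower one, at 14.1 and 0.0145 FPKM. Of 30 cytokine and chemokine genes, 17 were higher and none lower, and 11 passed the filter through the day 16 library alone. The Langerhans cell chemokine Ccl20 stood at 0.515 and 21.1 FPKM and Cxcl16 at 1.77 and 35.6 FPKM. Cxcl5, which draws neutrophils, stood at 0.0189 and 12.4 FPKM, and Ccl27a, made by keratinocytes, at 19.9 and 270 FPKM. Ccl6, Ccl8, Ccl27a and Cxcl12 rose over both genotypes (limma, 4 of 28). Of 18 antimicrobial peptide genes 13 were higher, and of 19 complement and acute-phase genes 10 were, with Hp, haptoglobin, at 69.0 and 707 FPKM.

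Of 22 T cell genes, 11 were at least 2-fold higher and none lower, 7 were under 1 FPKM at both days, and 11 passed the filter through the day 16 library alone, so that count describes levels only. Gzmc, a granzyme, stood at 0.198 and 31.0 FPKM, and Cd3g, of the T cell receptor complex, at 0.396 and 5.15 FPKM in hairloss skin and 0.602 and 9.87 FPKM in wildtype skin. Mast cell genes were lower in 9 of 13 and higher in none. Hdc, which makes histamine, stood at 114 and 10.1 FPKM and Cpa3, a granule protease, at 344 and 73.3 FPKM. Mcpt4, another granule protease, stood at 98.6 and 118 FPKM, and in wildtype skin at 117 and 45.4 FPKM. Hdc, Tpsab1 and Tpsb2 fell over both genotypes (limma, 3 of 12).

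White fat and endothelial genes were more often lower than higher. Of 20 white fat genes, 7 were lower and 2 higher. Adipoq, adiponectin, stood at 180 and 78.8 FPKM, and Lep, leptin, at 0.562 and 7.63 FPKM, which rose over both genotypes by 2.71 ± 0.36 (SE, limma adjusted p = 0.031). Of 16 brown fat genes, 3 were higher (Elovl3, Cidea and Pank1) and 3 lower (Ucp1, Cpt1b and Cox8b). Elovl3 and Cidea are also in the sebaceous gland list. Ucp1, the heat-making protein of brown fat, stood at 3.25 FPKM at day 0 and was listed at 0 at day 16, against 101 and 0.103 FPKM in wildtype skin. Of 20 endothelial genes, 7 were lower and none higher, with Cldn5, a junction protein of vessels, at 31.1 and 8.22 FPKM. The adult globins Hba-a1 and Hbb-bs stood at 451 and 134 and at 654 and 190 FPKM. The median difference of each list is set beside its wildtype value in the plot of list medians.

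**Figure D5:**
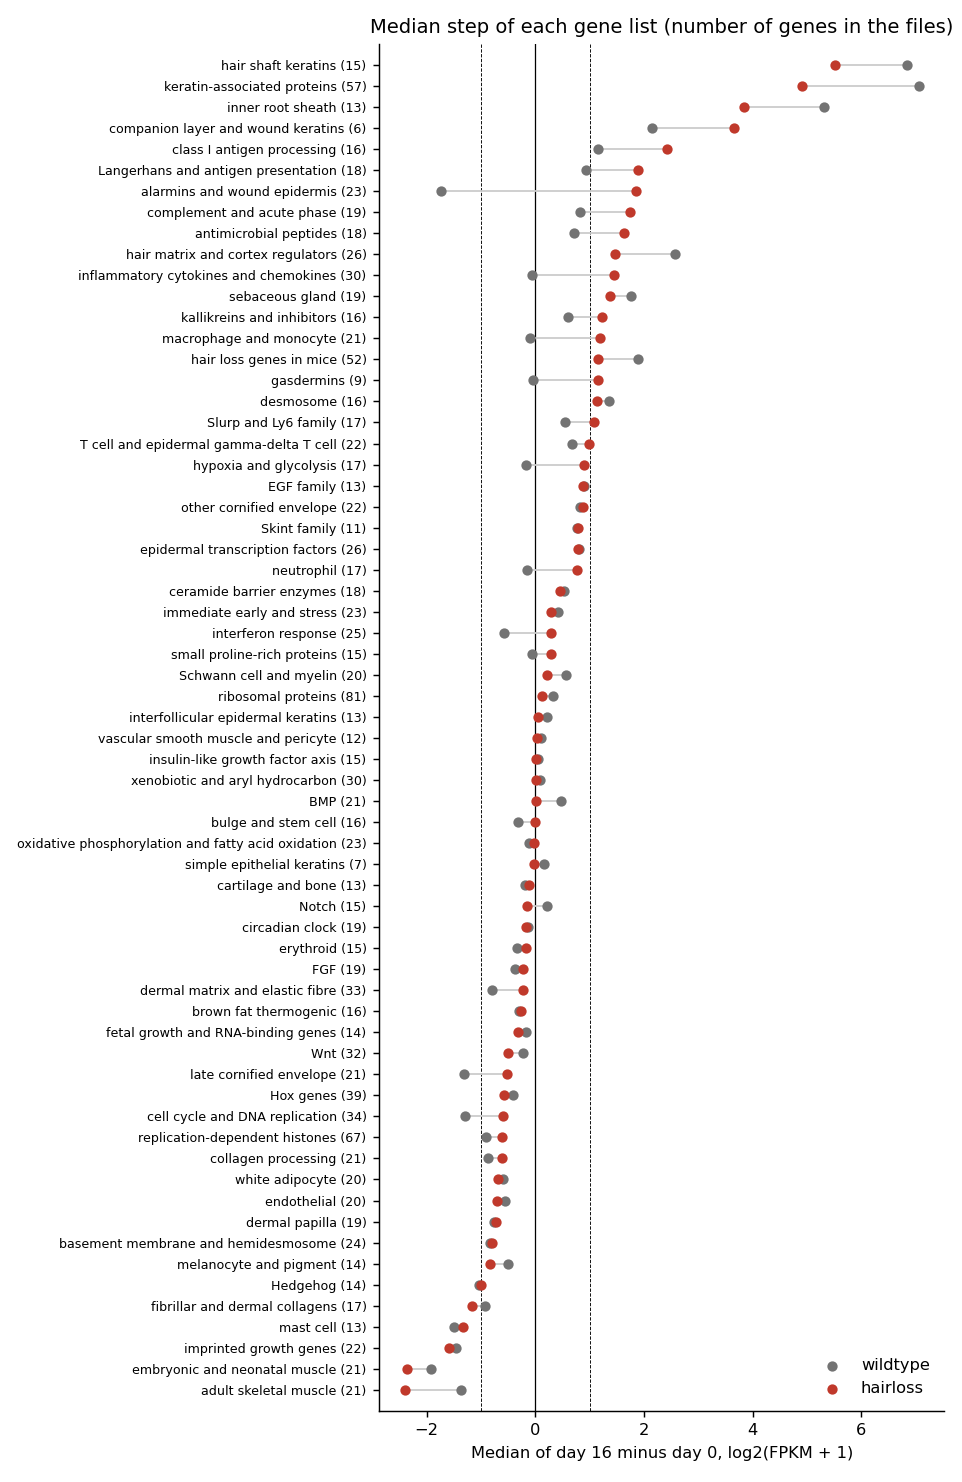
Median over all genes of each list in the files (number in brackets) of the day 16 minus day 0 difference in log2(FPKM + 1), for hairloss (red) and wildtype (grey), 1 library per genotype and day, with dashed lines at 2-fold. Hair shaft keratins and KRTAPs lie farthest right in both genotypes, and the alarmin list is at 1.86 in hairloss and -1.74 in wildtype skin.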

How the data were processed

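Total RNA of mouse skin was isolated with RNeasy columns and made into TruSeq libraries, per the labels' protocols. The tools cutadapt and Cuffdiff and the build mm10 come from the submitters' processing notes, which give no versions. The authors deposited 1 value per gene and library under a header that names no unit. Their aligner and annotation release are not given in sources used here. The deposited numbers were read as FPKM because Cuffdiff is named and because they are not whole and sum to different totals in each library; this unit is an inference. The files hold no counts, depth was estimated from the spacing of the lowest values of genes with a single transcript of over 1000 bases, and an exact 0 can be a failed estimate. FPKM values of a library depend on its most abundant genes.

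The 2 hairloss libraries were joined by gene ID. Gene types, symbols and coordinates came from GENCODE M21 (same build), and 31 symbols from the files. Genes of at least 1 FPKM in either library were compared as log2(FPKM + 1), and differences of at least 2-fold on that scale were counted without a test, as each side is 1 library. Counts and medians of a list are over its genes in the files. The step shared by both genotypes was tested two-sided with limma 3.58.1 in R 4.3.3 (age as 4 levels, genotype block, 3 residual degrees of freedom, eBayes with trend and robust, Benjamini-Hochberg adjustment over 18724 genes), after a check on simulated data; wildtype and hairloss share that test, and whether libraries are separate animals' skin is not given. Other work used Python 3.11.15 with numpy 2.4.6 and pandas 2.3.3. Alternatives were other pseudocounts (0.1 and 5), a minimum of 5 FPKM or none, 2 rescalings, leaving out genes listed at 0 or sex-linked genes, and fits without days 19 or 28.

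The genes, the 69 lists and the tests were chosen with earlier results of these data known. Genes named were drawn from the 12 with the largest difference each way, the 10 highest at each day and up to 8 listed at 0. Genes with predicted names were left out of these rankings. From each list they were drawn from up to 5 members with the largest difference, its highest member and up to 3 against its direction. Further sources were up to 10 genes each way by difference between the steps and up to 8 each way from the fit. Not all of these genes are named in the text. Other genes named were chosen after their values were seen. The values of 1 gene in these lists are not reported here.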

Additional observations from a re-analysis of the deposited data

Results flagged for a closer look

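The 9 genes and 1 list given here went at least 2-fold opposite ways in hairloss and wildtype skin between days 0 and 16. Of 13335 genes compared in both pairs, 21 were at least 2-fold higher in hairloss and lower in wildtype skin, and 8 the reverse. Smaller opposite differences are not listed here. With 1 library per genotype and day the difference was not tested, and values are differences in log2(FPKM + 1), hairloss first. Krt6b and Krt16, keratins of wounded epidermis, were at 2.49 against -2.40 and at 2.64 against -1.46. Serpinb3a, a serine protease inhibitor, was at 2.16 against -4.61. Sprr2a1, a small proline-rich protein, was at 3.51 against -1.47. Gsdmc, a pore-forming gasdermin, was at 2.09 against -3.46. Tchh was at 4.45 against -5.85, the wildtype value resting on a level listed at 0. Myl2, a slow muscle light chain, was at -1.93 against 1.71. Adh6b, an alcohol dehydrogenase, was at -2.11 against 1.14, and Cox20, an assembly factor of cytochrome oxidase, at -1.05 against 4.26. The median of the alarmin and wound epidermis list was 1.86 in hairloss skin and -1.74 in wildtype skin.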

How the results depend on the processing

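The counts depended most on the pseudocount. With 0.1, 1800 genes were at least 2-fold lower in hairloss skin and 1135 had a hairloss step at least 2-fold below the wildtype step. With 5, 804 genes were higher and 428 lower in hairloss skin, 969 and 464 in wildtype skin, the hairloss step lay above the wildtype step in 285 genes and below it in 373, and 20 lists had a median of at least 1 in size. Leaving out sex-linked genes gave 1489 higher and 1128 lower genes in hairloss skin, of 13259 compared. Among the 12 largest falls of genes above 0 in both hairloss libraries, predicted names left out, Arhgap36, Tceal7, Atp1b4 and Nrk lie on the X chromosome. In the limma fit a minimum of 5 FPKM left 513 lower genes, with fewer genes tested. Without the day 28 libraries 379 genes passed as higher and 375 as lower, with fewer samples. No value of at least 2-fold changed sign under the alternatives run. Smaller values did in 8 of 413 genes and 7 of 65 list medians, and these lay as reported within 0.37 of 0. The insulin-like growth factor median went from 0.02 to -0.72 with a minimum of 5 FPKM. Also among them were Eef1a1 and the ribosomal list with the rescaling that leaves out keratins, which also put more genes lower than higher (1626 against 1238). With that rescaling 11 of the 413 genes went under 2-fold, Cd151 among them, and 95 did with a pseudocount of 5. The genotype block of the limma fit pairs libraries by genotype, and no replicate numbers pair them further. Depth leaves levels under about 0.08 FPKM on 1 kb of transcript uninformative.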

Other observations

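Glycolysis and oxygen-sensing genes were not described above. Of 17 genes, 7 were at least 2-fold higher and 1 lower at day 16 in hairloss skin, with a median difference of 0.91, against 1 higher and none lower and a median of -0.17 in wildtype skin. The hairloss step lay at least 2-fold above the wildtype step for 6 of the 17, and the difference between genotypes was not tested. Egln3, an oxygen sensor, stood at 11.97 and 65.1 FPKM compared with 9.97 and 12.5 FPKM, Slc2a1, the glucose transporter, at 7.54 and 37.6 FPKM compared with 7.46 and 5.19 FPKM, and Pgk1, a glycolytic enzyme, at 89.6 and 183 FPKM compared with 104 and 57.9 FPKM. Bnip3, a hypoxia-induced mitochondrial protein, was the lower one, at 80.4 and 37.7 FPKM. With the rescaling that leaves out keratins 4 of the 17 were at least 2-fold higher in hairloss skin.

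Hox genes, which carry body position, were lower in 10 of 39 and higher in 1. Of the 23 compared, 14 passed the filter through the day 0 library alone, so this count describes levels only. Hoxc8 stood at 7.07 and 0.685 FPKM and Hoxa7 at 4.81 and 0.243 FPKM in hairloss skin and at 5.98 and 1.24 and 7.29 and 0.635 FPKM in wildtype skin. Hoxb7 stood at 4.20 and 0.434 FPKM in hairloss skin and 3.14 and 3.70 FPKM in wildtype skin. The labels give no body site, and whether the pieces came from 1 site was not tested. Of 52 genes known from hair loss in mice, 28 were higher and 3 lower in hairloss skin, against 37 and 3 in wildtype skin. The hairloss step lay at least 2-fold below the wildtype step for 14 of them and above it for 3, which was not tested. In hairloss skin the 3 lower genes were Edar, Lef1 and Trps1. Hr, hairless, stood at 37.8 and 145 FPKM and Vdr, the vitamin D receptor, at 14.0 and 52.2 FPKM, and both rose over both genotypes (limma). Gsdma3, a gasdermin of the follicle and sebaceous gland, stood at 0.0188 and 16.5 FPKM.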
